A study of Mus musculus with 8 samples.

Results

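Enamel is laid down as a soft matrix and hardens during maturation, when the ameloblasts that cover it move acid, bicarbonate, chloride and citrate in and out of the tissue. The genes described here serve that transport: the carbonic anhydrases *Car2* and *Car6*, the bicarbonate and anion transporters *Slc4a2*, *Slc4a4* and *Slc26a6*, the chloride channel *Cftr*, the citrate transporter *Slc13a5* and *Wdr72*. They were chosen by name for these roles, but with earlier results of these data known, as were the marker and pathway lists below. All 8 were found among the 23358 genes of the deposited table. The study asked what becomes of dental epithelium in mice that lose *Med1*, a subunit of the Mediator complex that links transcription factors to RNA polymerase. RNA was sequenced from the cervical loop of the incisor, the growing end of the tooth, in 2 pieces: the head (CLH), where the stem cells of the dental epithelium lie, and the tail (CLT), where their progeny lie. The mice were C57BL/6 and 4 weeks old. In the conditional knockout (cKO), Cre recombinase under the *Krt14* promoter removed exons 8 to 10 from floxed *Med1* alleles, so the deletion was limited to cells that express or once expressed *Krt14*. Control mice (Ctrl) were littermates without Cre from 2 litters. Tissues of several mice were pooled, and a dissected piece also holds cells other than epithelium. Each of the 4 groups (Ctrl CLH, cKO CLH, Ctrl CLT and cKO CLT) had 2 libraries.

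Expression is given as RPKM, a read count divided by the gene's length in kilobases and by the size of the library. Library totals recovered from the values ran from about 26590000 reads in Ctrl CLT 2 to about 34420000 in Ctrl CLH 1, and 82.2% to 85.6% of them lay on genes of the table. Groups were compared with limma on log2(RPKM + 1) over the 14148 genes that reached an RPKM of 1 in at least 2 libraries. A gene was called when its Benjamini-Hochberg adjusted p over all of these genes was under 0.05. The added 1 shrinks the fold changes of genes with low values. All 8 transport genes passed the filter, but *Car6* did so only through the CLT libraries and *Wdr72* only through Ctrl CLT, so both had to differ between some groups. With 2 libraries a group, an exact permutation test cannot give a p under 0.333. Because the libraries are pools whose mice were not listed, the p-values measure the spread between libraries. Alternatives that left out 1 library took that spread from the other groups alone. In CLT without a Ctrl library, this was the cKO CLT pair. Its median absolute difference of log2(RPKM + 1) was 0.11, against 0.40 in Ctrl CLT. Calls in those fits are therefore no sign of a firmer result.

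The library titles read WT or KO, taken here as the study's Ctrl and cKO. These labels were held against *Med1* itself. Its RPKM in CLH was 7.71 and 9.12 under the Ctrl label against 7.10 and 7.03 under the cKO label (limma log2 fold change -0.22, SE 0.11, adjusted p = 0.71). In CLT it was 4.83 and 8.71 in Ctrl against 9.15 and 8.96 in cKO (limma log2 fold change 0.42, SE 0.30, adjusted p = 0.36). *Med1* was thus not lower in the CLT libraries labelled cKO, and every direction below is that of libraries labelled cKO against libraries labelled Ctrl. The 3 deleted exons make up 239 of the 7589 bases over which reads were counted, or 3.15%. Values per exon were not analysed here, so the gene's total does not test the deletion. Without Ctrl CLT 1 the CLT difference of *Med1* on the log2 scale was 0.05, and without Ctrl CLT 2 it was 0.79.

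As background, the growth of enamel crystals releases acid, which maturation ameloblasts neutralise with bicarbonate. Carbonic anhydrases make bicarbonate from carbon dioxide and water, transporters of the SLC4 and SLC26 families carry it across the membrane, and chloride that leaves through *Cftr* can be exchanged for it. Loss of several of these genes is known to leave enamel soft, and mutations of *WDR72* and *SLC13A5* cause enamel defects in people.

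The CLT libraries stood apart from each other in their tissue markers. Of the secretory ameloblast markers *Amelx*, *Ambn*, *Enam* and *Mmp20*, all 4 were called lower in cKO CLT, where 1.68% of all genes were. The summed RPKM of the 4 was 79097 and 30269 in Ctrl CLT but 10.6 and 5.83 in cKO CLT. Their most abundant gene was *Amelx*, at 48799 and 18601 in Ctrl CLT against 6.57 and 3.68 in cKO CLT. The maturation ameloblast markers *Klk4*, *Amtn*, *Odam* and *Slc24a4* were all 4 called lower as well, with sums of 5536 and 7204 in Ctrl CLT against 13.2 and 15.0 in cKO CLT. *Amtn*, their most abundant gene, reached 4429 and 3246 in Ctrl CLT against 6.88 and 8.72 in cKO CLT. With any 1 CLT library left out the 4 secretory genes were called, and without cKO CLT 1 or cKO CLT 2 only 2 of the 4 maturation genes were. Voom on recovered reads called 0 of either list, leaving out the filter on low values gave 0 secretory genes and 1 maturation gene, and a crossed replicate block (cKO 2 with Ctrl 1), added after the data were seen, gave 2 of each. So the sums of the markers that define ameloblasts were high in both Ctrl CLT libraries and far lower in both labelled cKO CLT. The maturation sums in cKO CLT lay within the range of the CLH libraries, 11.0 to 27.7.

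Markers of odontoblasts, bone and osteoclasts moved with them. Of 9 odontoblast and bone genes, 8 were tested and 6 were called lower in cKO CLT, against 1.68% of all genes. The sum was 2208 and 2601 in Ctrl CLT against 378 and 474 in cKO CLT. *Col1a1* was the most abundant, at 1067 and 1335 against 376 and 472. *Ibsp* and *Mepe* had no reads in either cKO CLT library. With the replicate number as a block 8 were called, where 6.05% of all genes were called lower. With 1 CLT library left out the count moved both ways. Voom called 0, leaving out the filter gave 1 and the crossed block gave 2. The 8 osteoclast genes summed to 119 and 237 in Ctrl CLT and to 57.2 and 55.0 in cKO CLT, with 1 of 4 tested called lower. The count was 0 with voom, with the crossed block or without the filter, and it moved both ways with 1 CLT library left out. With the replicate number as a block it was 3, where 6.05% of all genes were called lower. *Ctsk* was the most abundant osteoclast gene, at 73.2 and 144.6 in Ctrl CLT against 39.3 and 35.6 in cKO CLT.

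Other markers ran the opposite way and split the Ctrl CLT pair. The cornified epidermis and hair genes, led by *Krt71*, summed to 8557 and 9350 in cKO CLT, to 2912 in Ctrl CLT 1 and to 13.5 in Ctrl CLT 2. Skeletal muscle genes, led by *Acta1*, summed to 1832 and 2012 in cKO CLT, 673 in Ctrl CLT 1 and 58.8 in Ctrl CLT 2. Fat genes, led by *Fabp4*, summed to 695 and 642 in cKO CLT, 256 in Ctrl CLT 1 and 7.22 in Ctrl CLT 2, where *Adipoq*, *Plin1*, *Cfd* and *Lep* had no reads. In these 3 lists all 22 tested genes (9, 8 and 5) were higher in both cKO CLT libraries than in both Ctrl CLT libraries, against 37.2% of all genes, which the filter fixed for *Plin1* and *Lep*. Of the 22, 0 were called by limma or by voom, with 6 at an unadjusted p under 0.05 in limma (36.2% of all genes were). Without Ctrl CLT 1, and again without Ctrl CLT 2, every one of these genes was called higher, as were 31.4% and 29.1% of all genes tested. With all 8 libraries in 1 fit 2, 7 and 4 of them were called higher, as were 23.7% of all genes. With the replicate number as a block it was 4, 7 and 1, against 6.28% of all genes, and with the crossed block 0. Ctrl CLT 1 therefore held hair, muscle and fat RNA at levels between those of Ctrl CLT 2 and of cKO CLT.

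The remaining lists differed less. Basal epithelium genes, led by *Krt5*, summed to 1319 and 824 in Ctrl CLT against 1688 and 1916 in cKO CLT, and 1 of 5 was called lower. With 1 cKO CLT library left out, with voom, with the crossed block or without the filter that call was lost. With all 8 libraries in 1 fit a further 3 were called higher, as were 23.7% of all genes. Erythroid genes, of which 7 of 9 were found, summed to 195 and 231 in Ctrl CLT against 133 and 127 in cKO CLT, almost all from *Beta-s*, and 0 of 3 were called (1 without Ctrl CLT 1, 2 without Ctrl CLT 2). Salivary gland genes summed to at most 2.44 in any library, led by *Amy1*, and *Smr3a*, *Prol1* and *Dcpp1* had no reads in the 8 libraries. In CLH 0 genes of the 10 marker lists were called by limma in either direction. The part of these tissues in the results on the transport genes was not tested.

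**Figure D1:**
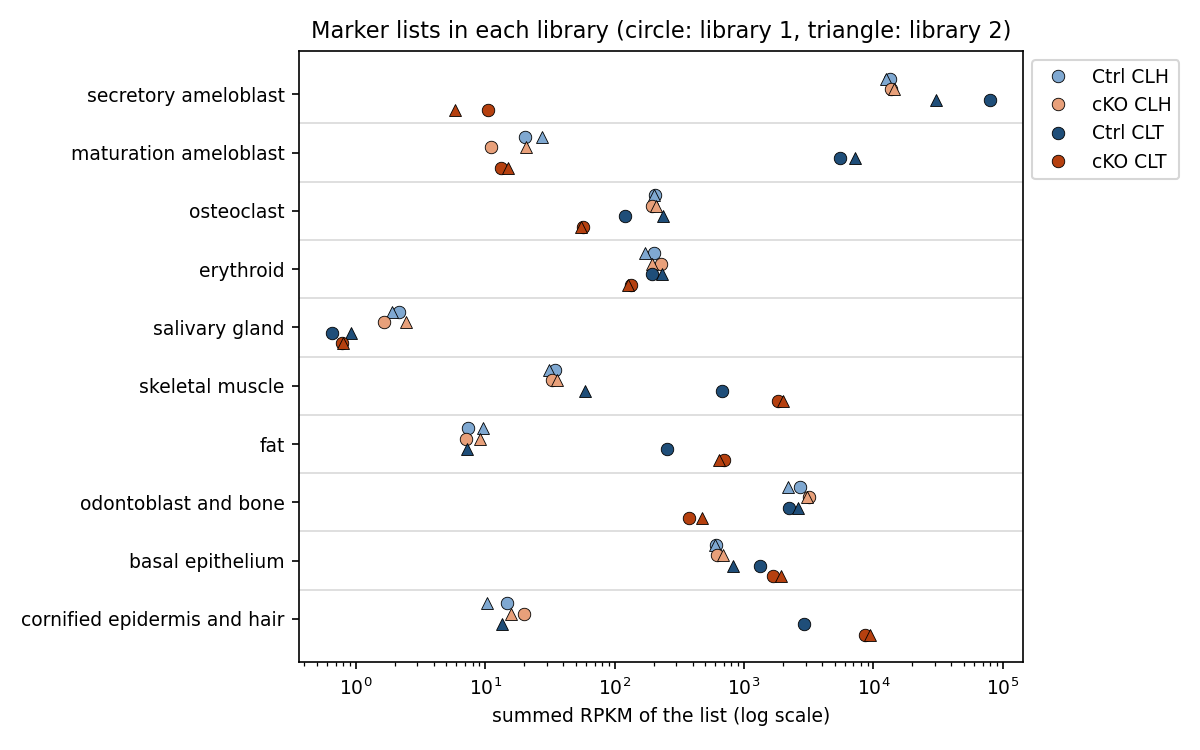
Summed RPKM of each marker list (horizontal log axis) in each of the 8 libraries, with circles for library 1 and triangles for library 2 of a group. Both cKO CLT libraries lie far below Ctrl CLT for the ameloblast lists and above it for hair, muscle and fat, where Ctrl CLT 1 and 2 differ from each other.

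In CLT, 7 of the 8 transport genes did not overlap between the labels and were lower under cKO. *Car6* did not overlap either and was higher. For *Wdr72* the lower value was built in, since only Ctrl CLT carried it past the filter, which leaves 6 others. Over all genes tested, 35.1% lay lower in this way and 37.2% higher, and the filter fixed this for 0.212% and 2.25% of all genes. By limma 4 of the 8 were called lower (*Slc13a5*, *Slc4a4*, *Car2* and *Cftr*) and 0 higher, against 1.68% of all genes lower and 0.0777% higher. All 8 had an unadjusted p under 0.05, as did 36.2% of all genes, with *Car6* at 0.0498, and with a pseudocount of 0.1 or no filter 7 did. The median log2 fold change of the 8 was -2.77, and that of all genes was -0.01. In bulk tissue, fewer cells of a type and less RNA per cell cannot be told apart.

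These calls depended on the setting. Without Ctrl CLT 1, 7 genes were called lower and *Car6* higher, where 38.1% of all genes tested were called lower and 31.4% higher. Without Ctrl CLT 2 the same 8 were called, *Wdr72* among them, where the shares were 23.0% and 29.1%. With all 8 libraries in 1 fit the 8 were called among 6183 genes. Without cKO CLT 1 or without cKO CLT 2, 0 were called, as also without a filter on low values and with voom on recovered reads. With the replicate number as a block 6 of the 8 were called, among 1744 genes, and with the crossed block 0 of the 8, among 9. The directions were the same in each of these fits.

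**Figure D2:**
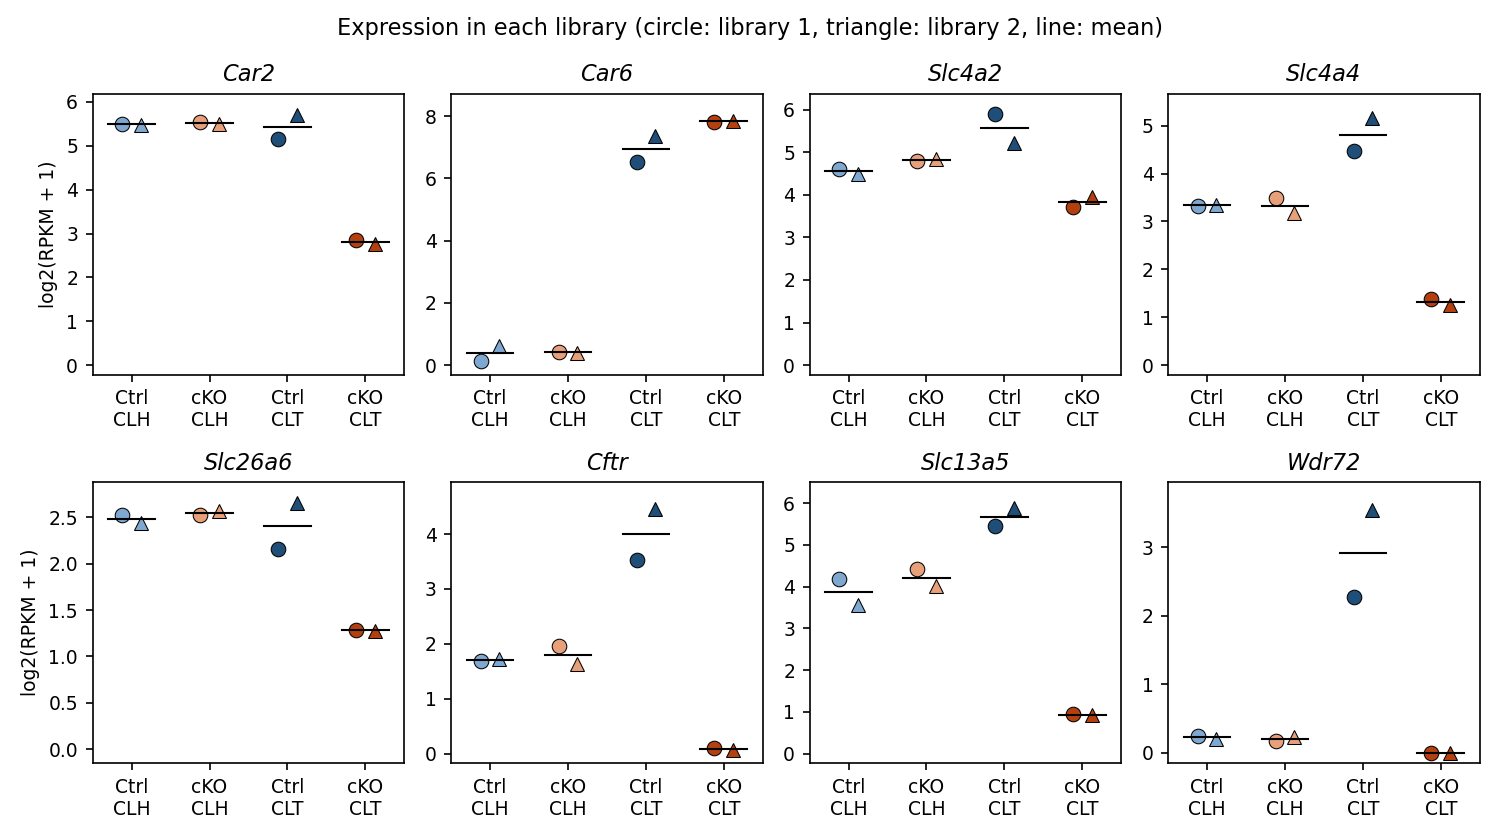
log2(RPKM + 1) of the 8 genes in each library (vertical axis, scaled per panel), by group (horizontal axis), with circles for library 1, triangles for library 2 and a line at the group mean. In cKO CLT 7 genes lie below every other library, and *Car6* is high in CLT and close to 0 in CLH.

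*Car2* (chromosome 3, 14886426 to 14900770, mm10) encodes carbonic anhydrase 2, the cytosolic enzyme that forms bicarbonate inside the cell, which osteoclasts also express. Its RPKM was 44.2 and 43.5 for Ctrl CLH, 45.9 and 44.0 for cKO CLH, 34.8 and 50.8 for Ctrl CLT, and 6.28 and 5.78 for cKO CLT. Thus 6 libraries lay close together and the 2 labelled cKO CLT lay far below them. The group means in CLT were 42.8 ± 11.4 (SD, n = 2) and 6.03 ± 0.354 (SD, n = 2), a 7.10-fold lower mean. *Car2* fell in cKO CLT by limma, with -2.62 on the log2 scale (SE 0.24, 95% interval -3.27 to -1.965, adjusted p = 0.040). Without cKO CLT 2 it did not pass (adjusted p = 0.28, the highest across the alternatives). The cKO CLT mean was 17.3% of the value in Ctrl CLT 1 and 11.9% of that in Ctrl CLT 2. The osteoclast sums given above were also lower in cKO CLT, and their part in this fall was not tested.

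*Car6* (chromosome 4, 150187016 to 150201135) encodes carbonic anhydrase 6, the secreted enzyme of the family, which is best known from saliva. It had an RPKM of 0.106 and 0.516 for Ctrl CLH against 0.325 and 0.321 for cKO CLH, on 5 to 19 reads a library. In CLT it was 90.2 and 162 in Ctrl against 224 and 229 in cKO, on 3612 to 8605 reads. *Car6* was thus the one gene of the 8 that was close to absent in CLH, abundant in CLT, and not lower in the libraries labelled cKO. The cKO CLT mean was 1.80-fold the Ctrl CLT mean, and it was 251% of Ctrl CLT 1 and 140% of Ctrl CLT 2. The log2 fold change of 0.90 (SE 0.33, 95% interval 0.00 to 1.80) did not pass (adjusted p = 0.14, limma). It was 0.48 without Ctrl CLT 1 (adjusted p = 0.0086) and 1.32 without Ctrl CLT 2 (adjusted p = 0.00052), in a range of 0.00052 to 0.52 across the alternatives. The salivary gland gene *Amy1* had 0.450 and 0.310 in Ctrl CLT against 0.509 and 0.684 in cKO CLT. The summed hair, muscle and fat markers were higher in cKO CLT than in Ctrl CLT and higher in Ctrl CLT 1 than in Ctrl CLT 2. The part of any of these tissues in the *Car6* values was not tested.

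*Slc4a2* (chromosome 5, 24425232 to 24440947) encodes an exchanger of chloride for bicarbonate. Its RPKM was 23.4 and 21.5 for Ctrl CLH, 26.9 and 27.5 for cKO CLH, 59.1 and 36.5 for Ctrl CLT, and 12.2 and 14.5 for cKO CLT. The cKO CLT libraries were below the other 6, and the cKO mean was 3.58-fold lower than the Ctrl mean in CLT. The log2 fold change of -1.73 (SE 0.29, 95% interval -2.52 to -0.94) did not pass (adjusted p = 0.064, limma). It passed without Ctrl CLT 1 (-1.39, adjusted p = 0.00052) and without Ctrl CLT 2 (-2.07, adjusted p = 0.00039), and across the alternatives its adjusted p ran from 0.00039 to 0.46. *Slc4a2* was the one gene of the 8 with a lower value in Ctrl CLT 2 than in Ctrl CLT 1, at 0.616 of it. Exons of *Slc4a2* overlap those of *Fastk* on the other strand, and the strand setting of the counting was not given in the sources used here, so part of its reads may belong to *Fastk*.

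*Slc4a4* (chromosome 5, 88887260 to 89239656) encodes a cotransporter of sodium and bicarbonate that brings bicarbonate into the cell. It had an RPKM of 8.97 and 9.20 for Ctrl CLH against 10.2 and 8.04 for cKO CLH. In CLT it was 21.1 and 34.7 in Ctrl against 1.5997 and 1.3897 in cKO, so Ctrl CLT was the highest group and cKO CLT the lowest. The means in CLT were 27.9 ± 9.56 (SD, n = 2) and 1.49 ± 0.148 (SD, n = 2), which is 18.7-fold lower. *Slc4a4* fell in cKO CLT by limma, with -3.50 on the log2 scale (SE 0.29, 95% interval -4.29 to -2.70, adjusted p = 0.037). Its adjusted p reached 0.24 without cKO CLT 2, the highest across the alternatives. The cKO CLT mean was 7.07% of Ctrl CLT 1 and 4.31% of Ctrl CLT 2.

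*Slc26a6* (chromosome 9, 108854043 to 108862143) encodes an anion exchanger of the SLC26 family that can carry chloride and bicarbonate. It was the least abundant of the 3 bicarbonate transporters by group mean, with an RPKM of 4.73 and 4.41 for Ctrl CLH, 4.75 and 4.94 for cKO CLH, 3.46 and 5.27 for Ctrl CLT, and 1.44 and 1.43 for cKO CLT. As with *Car2*, 6 libraries were alike and the cKO CLT pair was lower, here by 3.05-fold against Ctrl CLT. The log2 fold change of -1.12 (SE 0.24, 95% interval -1.79 to -0.45) did not pass (adjusted p = 0.077, limma). Without Ctrl CLT 1 it was -1.37 and without Ctrl CLT 2 -0.87.

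*Cftr* (chromosome 6, 18170687 to 18322769) encodes the chloride channel that is mutated in cystic fibrosis. Its RPKM was 2.24 and 2.28 in Ctrl CLH, 2.89 and 2.09 in cKO CLH, and 10.6 and 20.9 in Ctrl CLT. In cKO CLT it was 0.0736 and 0.0523, on 13 and 9 reads, against 1956 and 3499 reads in Ctrl CLT. *Cftr* was therefore at the edge of detection in cKO CLT, with a mean 250-fold lower than in Ctrl CLT (168- to 332-fold with 1 library left out). It fell by limma, with -3.91 on the log2 scale (SE 0.36, 95% interval -4.91 to -2.905, adjusted p = 0.042), a scale on which values this low count for little. Across the alternatives its adjusted p ran up to 0.25, without cKO CLT 1. The annotation has an antisense gene, *Gm15592*, over *Cftr* exons, whose reads could not be told apart without strand.

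*Slc13a5* (chromosome 11, 72241994 to 72266604) encodes a cotransporter of sodium and citrate. It had an RPKM of 17.0 and 10.7 for Ctrl CLH, 20.3 and 15.2 for cKO CLH, 42.7 and 58.3 for Ctrl CLT, and 0.927 and 0.897 for cKO CLT. Ctrl CLT was the highest group and cKO CLT the lowest, with no overlap between either and the rest. The CLT means were 50.5 ± 11.0 (SD, n = 2) and 0.912 ± 0.0214 (SD, n = 2), a 55.3-fold lower mean on 85 and 80 reads. On log2(RPKM + 1), which shrinks *Cftr* and *Wdr72* more, it had the largest fall of the 8, -4.73 (SE 0.21, 95% interval -5.33 to -4.14, adjusted p = 0.020, limma). With a pseudocount of 0.1 it was -5.63, against -6.53 for *Cftr* and -6.03 for *Wdr72*. The fall of *Slc13a5* did not pass without cKO CLT 2 (adjusted p = 0.16, the highest across the alternatives). Exons of *Slc13a5* overlap those of *1700051A21Rik* on the other strand.

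*Wdr72* (chromosome 9, 74110334 to 74283203) encodes a protein with WD40 repeats that ameloblasts use in endocytosis. It had an RPKM of 0.189 and 0.150 for Ctrl CLH against 0.131 and 0.175 for cKO CLH, on 21 to 34 reads a library. In Ctrl CLT it was 3.86 and 10.7, on 590 and 1489 reads, and in cKO CLT neither library had a read. A library with no read allows up to 3 reads, counting error only, and against that floor *Wdr72* was at least 351-fold lower in cKO CLT. The bound was 186-fold against Ctrl CLT 1 alone and 516-fold against Ctrl CLT 2 alone. In the fit, the log2 fold change of -2.92 (SE 0.48, 95% interval -4.24 to -1.60) did not pass (adjusted p = 0.064, limma), with the Ctrl libraries 2.78-fold apart. *Wdr72* was tested only because Ctrl CLT passed the filter, which fixed this direction. With no filter on low values its adjusted p was 0.10.

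The 4 called genes, *Car2*, *Slc4a4*, *Cftr* and *Slc13a5*, kept their direction with 1 Ctrl CLT library left out. Their p-values in those fits are no check, since the spread then came from the closer cKO CLT pair alone. Across all the alternatives the log2 fold change of *Slc13a5* stayed between -5.71 and -4.51, and that of *Car2* between -2.88 and -2.35.

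In CLH the 8 genes differed little between cKO and Ctrl. By limma 0 of 8 were called, as for all genes tested (0.0% in each direction), and voom on recovered reads called 0 too. At an unadjusted p under 0.05 there was 1 (and 7.26% of all genes), *Slc4a2*, with a log2 fold change of 0.26 (SE 0.07, 95% interval 0.09 to 0.44, adjusted p = 0.69, limma). *Slc4a2* and *Slc26a6* were higher in both cKO CLH libraries than in both Ctrl CLH libraries, where 19.9% of all genes lay higher and 18.8% lower in this way. The other 6 overlapped between the groups. The widest interval was that of *Slc13a5*, -0.31 to 1.02 around 0.35. That of *Wdr72* in CLH says little, since at an RPKM of at most 0.189 the added 1 shrinks any difference. The secretory ameloblast sums in CLH were 13458 and 12477 in Ctrl against 13647 and 14298 in cKO.

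**Figure D3:**
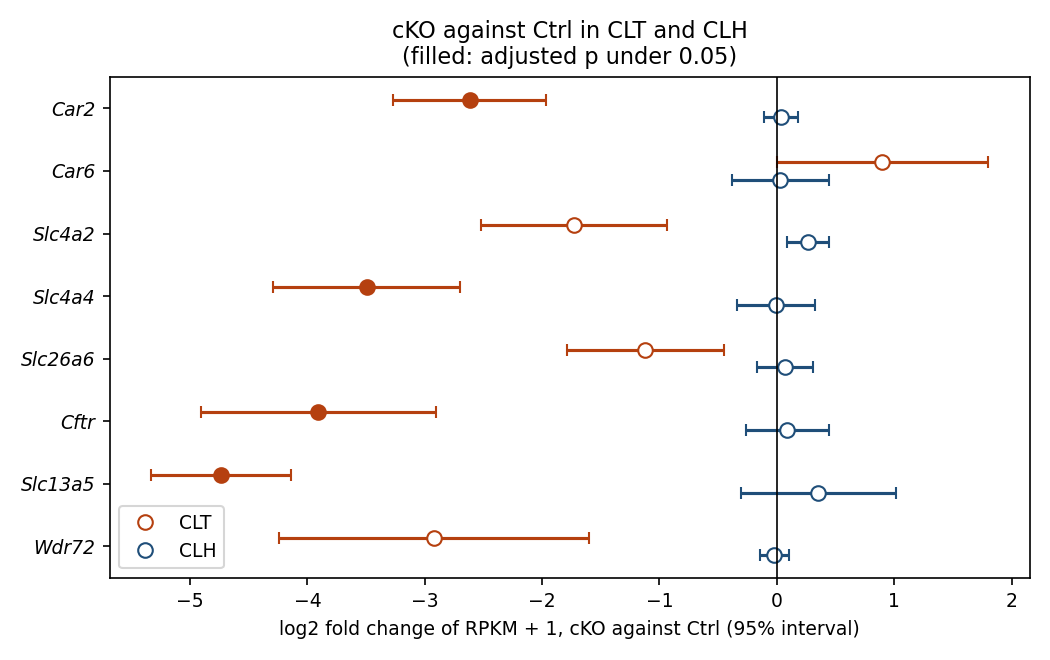
log2 fold change of RPKM + 1, cKO against Ctrl (horizontal axis), with 95% intervals from limma for the 8 genes in CLT and in CLH. Filled points have an adjusted p under 0.05: *Car2*, *Slc4a4*, *Cftr* and *Slc13a5* in CLT, and none in CLH.

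The difference between the 2 effects was tested as an interaction over the 8 libraries. It was called negative for 7 of the 8 genes, meaning a lower cKO effect in CLT than in CLH, where 9.58% of all genes were called negative and 8.05% positive. *Wdr72* passed the filter only through Ctrl CLT, so its negative difference was built in, which leaves 6 others. For *Slc13a5* the difference was -5.09 (SE 0.37, adjusted p = 0.0017, limma), for *Cftr* -3.995 (SE 0.42, adjusted p = 0.0053) and for *Slc4a4* -3.49 (SE 0.34, adjusted p = 0.0043). Those of *Wdr72*, *Car2*, *Slc4a2* and *Slc26a6* lay between -2.90 and -1.19. For *Car6* it was 0.87 (SE 0.40) and did not pass (adjusted p = 0.17, limma), except without Ctrl CLT 2 (1.29, adjusted p = 0.0018, when 26.6% of all genes were called positive, of a range up to 0.86 across the alternatives). With any 1 of the CLH or cKO CLT libraries left out, *Slc4a2*, *Slc26a6* and *Wdr72* were no longer past the threshold. The replicate block (6.61% of all genes called negative) and voom (7.87%) left 6 of the 8 genes called each. Their adjusted p across the alternatives reached 0.089, 0.13 and 0.14.

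Along the control cervical loop, 6 of the 8 genes had a higher RPKM in both Ctrl CLT libraries than in both Ctrl CLH libraries, against 15.2% of all genes (36.8% lay lower). For *Wdr72* this was built in by the filter, which it passed only through Ctrl CLT. *Car6* passed only through CLT, but its cKO CLT values alone sufficed. The filter thus fixed a higher *Car6* value in some CLT libraries, not in those of Ctrl. The means were 405-fold higher for *Car6*, 43.05-fold for *Wdr72*, 6.96-fold for *Cftr*, 3.64-fold for *Slc13a5*, 3.07-fold for *Slc4a4* and 2.13-fold for *Slc4a2*. With each of the 4 libraries left out in turn these folds ran from 244 to 1190 for *Car6*, 22.8 to 63.3 for *Wdr72*, 4.69 to 9.23 for *Cftr*, 2.96 to 4.70 for *Slc13a5*, 2.33 to 3.82 for *Slc4a4* and 1.62 to 2.63 for *Slc4a2*. *Car2* and *Slc26a6* overlapped between the regions, with means at 97.6% and 95.5% of those in Ctrl CLH. By limma 0 of the 8 were called, 6 had an unadjusted p under 0.05 (4 without *Car6* and *Wdr72*, and 13.1% of all genes), and voom on recovered reads called 0. The test called 1 gene of all tested, 0.00707% higher and 0.0% lower. That gene, picked out after its values were seen, was *Klk4*, the enamel protease of the maturation stage, at 1.46 and 1.65 in Ctrl CLH and 186.6 and 205.8 in Ctrl CLT (limma log2 fold change 6.27, SE 0.14, adjusted p = 0.021). *Klk4* did not pass without Ctrl CLH 1 (adjusted p = 0.068) or Ctrl CLH 2 (0.062), in a range of 0.00020 to 0.14 across the alternatives. Without Ctrl CLT 1, 4 of the 8 genes were called higher, where 1.91% of all genes were called higher and 1.4% lower. Without Ctrl CLT 2, 6 were called higher and *Car2* lower, where 18.4% of all genes were called higher and 34.9% lower. Both counts of higher genes include *Car6* and *Wdr72*.

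From cKO CLH to cKO CLT, 7 genes lay lower in both CLT libraries, against 52.3% of all genes, and *Car6* lay higher, against 34.5%. By limma 6 were called lower (45.1% of all genes) and *Car6* was called higher (28.9%), so a call here was common. *Car6* passed the filter only through CLT, but its Ctrl CLT values alone sufficed, so its direction between the cKO regions was not fixed. The mean of *Cftr* was 39.6-fold lower in cKO CLT than in cKO CLH, that of *Slc13a5* 19.5-fold, *Car2* 7.46-fold, *Slc4a4* 6.09-fold, *Slc26a6* 3.38-fold and *Slc4a2* 2.03-fold. *Wdr72*, with 23 and 27 reads in cKO CLH and 0 in cKO CLT, was at least 7.35-fold lower and was not called (adjusted p = 0.089, limma), in a range of 1.1e-05 to 0.67 across the alternatives. It was called with a pseudocount of 0.1, without the filter, with voom and without cKO CLH 1. The mean of *Car6* was 702-fold higher, its difference on log2(RPKM + 1) was 7.43, and with no filter on low values its adjusted p was 9.2e-05 (limma). The 2 region comparisons share libraries with those of cKO against Ctrl. After median-of-ratios scaling the median log2 fold change of all genes between the regions moved from -0.13 to 0.01 in Ctrl and from -0.18 to 0.02 in cKO. In cKO the calls over all genes then split into 5316 higher and 4850 lower, in place of 4084 and 6384.

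The order of the 8 levels differed between the groups. In Ctrl CLH and cKO CLH it ran from *Car2* through *Slc4a2*, *Slc13a5*, *Slc4a4*, *Slc26a6* and *Cftr* to *Car6* and *Wdr72*. Neighbours in that order did not overlap between their library values, other than *Car6* and *Wdr72* in Ctrl CLH. In Ctrl CLT *Car6* came first, and *Slc13a5*, *Slc4a2* and *Car2* after it could not be placed, since the libraries of each overlapped those of the next. *Slc4a4* followed, and *Cftr*, *Wdr72* and *Slc26a6* overlapped in turn. In cKO CLT the order was *Car6*, *Slc4a2*, *Car2*, then *Slc4a4* and *Slc26a6* with overlapping values, then *Slc13a5*, *Cftr* and *Wdr72*. The mean RPKM of *Car6* there was 227, and that of *Slc4a2*, the next, was 13.4.

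The Ctrl CLT libraries differed from each other for most of the 8. The RPKM in Ctrl CLT 2 was 1.37-fold (*Slc13a5*) to 2.78-fold (*Wdr72*) that in Ctrl CLT 1 for 7 genes. Over all genes tested, the median absolute difference of log2(RPKM + 1) between the 2 libraries was 0.40 in Ctrl CLT, and 0.09 to 0.11 in the other groups. The maturation ameloblast sum was also higher in Ctrl CLT 2, but *Amtn*, its most abundant gene, was lower there, at 3246 against 4429 in Ctrl CLT 1. The secretory sum was higher in Ctrl CLT 1.

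For each of the 8, the 2 genes outside the list with the most similar pattern were found by the root mean square difference of log2(RPKM + 1) over the 8 libraries, after each gene was centred on its own mean. The distance was not scaled to how far a gene varies, so genes that vary little can lie closer. *Slc26a6* had the closest, *Acot11* at 0.05 and *Syt5* at 0.06. Next came *Car2*, with *Socs2* at 0.08 and *Prkd1* at 0.10, and *Slc4a2*, with *Slc37a4* at 0.10 and *Tmc4* at 0.13. *Socs2*, for example, stood at an RPKM of 10.3 and 17.6 in Ctrl CLT against 1.69 and 1.37 in cKO CLT.

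The other 5 genes had less close matches. *Wdr72* was nearest to *Tex11* at 0.17 and *Gpr155* at 0.35, *Slc4a4* to *Trpm7* at 0.19 and *Cntnap2* at 0.29, and *Slc13a5* to *Snap91* at 0.28 and *Cldn20* at 0.39. *Cftr* was nearest to *A330050F15Rik* at 0.35 and *Trpm7* at 0.42. *Car6* had no close match, with *Anxa8* at 1.31 and *Akr1c18* at 1.48. Among the 8 themselves the closest pair was *Cftr* and *Slc4a4* at 0.32, and *Car6* was at least 3.18 from each of the others.

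The wider families were described from 9 lists, in which the 8 genes were left out. The lists named 104 further genes, of which 75 were tested. In CLT 1 of the 75 was called higher and 0 lower by limma, 34 had an unadjusted p under 0.05 (36.2% of all genes tested did), and voom on recovered reads called 0. In both cKO CLT libraries 42 were lower and 18 higher than in both Ctrl CLT libraries, against 35.1% and 37.2% of all genes. The filter fixed the direction of 2 of the 42 and 3 of the 18. The median log2 fold change in each list can be read against -0.01 for all genes tested. Among the alternatives, the replicate number as a block called 8 of the 75 higher and 5 lower (6.28% and 6.05% of all genes). All 8 libraries in 1 fit called 15 higher and 27 lower, among 6183 genes. The crossed block called 0 in either direction, as did the fit without the filter on low values. Without Ctrl CLT 1, 20 were called higher and 42 lower (31.4% and 38.1% of all genes), and without Ctrl CLT 2, 16 and 35 (29.1% and 23.0% of all genes). In CLH 0 of the 75 were called by limma and by voom, and 7 had an unadjusted p under 0.05 (7.26% of all genes did).

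Among the other carbonic anhydrases, 10 of 14 were tested, 0 were called, and the median log2 fold change in CLT was 0.00. In both cKO CLT libraries 3 of the 10 were lower and 3 higher (1 of these, *Car14*, by the filter), against 35.1% and 37.2% of all genes. *Car12*, a membrane enzyme, had the lowest log2 fold change, -0.77 (SE 0.44, adjusted p = 0.27, limma), at 24.9 and 57.8 in Ctrl CLT against 23.8 and 20.05 in cKO CLT. *Car4*, also bound to the membrane, had the highest, 1.79 (SE 0.48, adjusted p = 0.094, limma). It had no reads in CLH or in Ctrl CLT 2, and an RPKM of 1.34 in library 1 of Ctrl CLT and 3.73 and 4.88 in cKO CLT, which is the pattern of the hair, muscle and fat sums.

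Of the other SLC4 genes 5 of 8 were tested and 0 called, with a median of 0.16. *Slc4a3*, an anion exchanger, had 5.50 and 7.21 in Ctrl CLT against 2.36 and 3.01 in cKO CLT (limma log2 fold change -0.99, adjusted p = 0.080). *Slc4a1*, the anion exchanger of red cells, had 3.03 and 0.198 in Ctrl CLT against 7.38 and 7.68 in cKO CLT (limma log2 fold change 1.96, adjusted p = 0.12). Of the 10 other SLC26 genes 5 were tested and 0 called, 4 of the 5 were lower in both cKO CLT libraries (35.1% of all genes were), and the median was -0.72. *Slc26a1* passed the filter only through Ctrl CLT and *Slc26a9* only through cKO CLT, so the direction of both was built in, which leaves 3 lower. *Slc26a1* had 10.6 and 26.7 in Ctrl CLT against 0.155 and 0.0682 in cKO CLT (limma log2 fold change -4.01, SE 0.47, adjusted p = 0.052). *Slc26a7*, the most abundant of them, had 8.30 and 27.9 in Ctrl CLT against 0.135 and 0.170 in cKO CLT (limma log2 fold change -3.83, SE 0.60, adjusted p = 0.062). *Slc26a9* had the highest log2 fold change, 1.29 (adjusted p = 0.084, limma), at 0.639 and 0 in Ctrl CLT against 2.04 and 2.24 in cKO CLT.

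Genes that move protons were examined in 3 lists. Of 11 sodium-proton exchangers and their regulators, 8 were tested, with a median of -0.25. *Slc9a2* was the one gene called in the 9 lists: its RPKM rose from 2.43 and 2.14 in Ctrl CLT to 8.37 and 8.84 in cKO CLT (limma log2 fold change 1.55, SE 0.17, adjusted p = 0.049). It did not pass without cKO CLT 1 (adjusted p = 0.44) or cKO CLT 2 (0.46), and its adjusted p across the alternatives ran from 0.00018 to 0.46. Nor did it pass in limma with a pseudocount of 0.1 (adjusted p = 0.0501), without the filter (0.092) or with the crossed block (0.096). By voom its adjusted p was 0.067. The *Slc9a2* values in CLH were 1.95 and 2.20 in Ctrl against 1.98 and 1.70 in cKO. *Slc9a3r1*, a scaffold protein of these exchangers, had 19.9 and 8.35 in Ctrl CLT against 45.6 and 48.9 in cKO CLT (limma log2 fold change 1.79, adjusted p = 0.086). *Slc9a5* had the lowest log2 fold change of the list, -1.24 (adjusted p = 0.17, limma).

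The V-ATPase is the pump that acidifies endosomes and lysosomes, and in osteoclasts and maturation ameloblasts also the space outside the cell. Of its 25 subunits and accessory proteins 23 were tested, 0 were called, 19 had a log2 fold change below 0, and the median was -0.48. Their summed RPKM was 1711 and 1337 in Ctrl CLT, 1148 and 1139 in cKO CLT, and 832 to 866 in CLH, so cKO CLT lay between Ctrl CLT and CLH. *Atp6v1g1*, the most abundant, had 199.3 and 187.4 in Ctrl CLT against 181.1 and 179.9 in cKO CLT (limma log2 fold change -0.10, adjusted p = 0.64). *Atp6v0a1* had 67.8 and 57.2 against 26.8 and 28.0 (limma log2 fold change -1.16, adjusted p = 0.060). *Atp6v1c2* had 10.1 and 1.30 against 28.8 and 30.3 (limma log2 fold change 2.59, adjusted p = 0.11). All 4 assembly and rabconnectin genes beside *Wdr72* were lower in both cKO CLT libraries, against 35.1% of all genes, 0 were called, and the median was -0.91, with *Wdr7* at -0.21. *Rogdi*, the most abundant and the one with the lowest log2 fold change, had 46.7 and 18.9 in Ctrl CLT against 12.4 and 14.9 in cKO CLT (limma log2 fold change -1.08, adjusted p = 0.18).

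Chloride channels other than *Cftr* had 10 of 14 tested, 0 called and a median of -0.03. *Ano1*, a calcium-gated chloride channel, had 11.6 and 15.9 in Ctrl CLT against 3.91 and 3.96 in cKO CLT (limma log2 fold change -1.56, adjusted p = 0.060). *Ano6*, the most abundant, had 21.3 and 21.2 against 15.9 and 15.2 (limma log2 fold change -0.43, adjusted p = 0.12). *Clcn1*, the chloride channel of skeletal muscle, had 0.347 and 0.0743 against 1.89 and 1.23 (limma log2 fold change 1.08, adjusted p = 0.081), and it passed the filter only through cKO CLT, which fixed its direction. In the list of SLC13 and citrate genes 5 of 10 were tested and 0 called, with a median of -0.31. *Cs*, the citrate synthase of mitochondria, had 110.5 and 79.9 in Ctrl CLT against 150.03 and 146.6 in cKO CLT (limma log2 fold change 0.65, adjusted p = 0.12). *Acly*, which splits citrate in the cytosol, had 36.4 and 35.2 against 56.7 and 59.6 (limma log2 fold change 0.68, adjusted p = 0.072), and *Aco1* had 22.0 and 26.5 against 15.1 and 14.4 (limma log2 fold change -0.68, adjusted p = 0.086). So the enzymes that make and use citrate were within 1 log2 unit of Ctrl, in contrast to *Slc13a5*.

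Receptors and channels that sense acid had 5 of 8 tested, 0 called, all 5 with a log2 fold change below 0 and a median of -1.06. For *Accn3*, which passed the filter only through Ctrl CLT, this was built in, which leaves 4 others. *Gpr4*, the most abundant and the lowest in log2 fold change, is a proton-sensing receptor known from blood vessels. It had 3.29 and 2.83 for Ctrl CLH, 4.72 and 3.92 for cKO CLH, 18.0 and 8.12 for Ctrl CLT, and 0.594 and 0.648 for cKO CLT (limma log2 fold change in CLT -3.02, SE 0.41, adjusted p = 0.060).

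The bases before the start of transcription are shown for 3 genes, since *Cftr* and *Slc13a5* fell together in cKO CLT and *Car6* did not. RefSeq promoters (GRCm38.p6, the assembly of mm10) were given for 6 of the 8 genes, 9 promoters in all, and not for *Car2* and *Wdr72*. The 250 bases before each start were searched on both strands for TGTGGT (the core of RUNX sites), TGANTCA (AP-1), TAATTA (homeobox) and CACGTG (E-box), motifs chosen with the expression values known. In the same 250 bases of all 32851 promoters given, 14% held TGTGGT, 6.75% TGANTCA, 4.84% TAATTA and 6.02% CACGTG. Among the 9, CACGTG was in that of *Car6*, in capitals below, and the other 3 motifs were in none. The G and C content was 52.4% before *Car6*, 76.4% before *Cftr* and 65.6% before *Slc13a5* (61.6% before its second start, not shown), and its median over all promoters was 52.4%. A match is a description of letters, not a site.
*Car6* (chr4:150201136-150201385, minus strand): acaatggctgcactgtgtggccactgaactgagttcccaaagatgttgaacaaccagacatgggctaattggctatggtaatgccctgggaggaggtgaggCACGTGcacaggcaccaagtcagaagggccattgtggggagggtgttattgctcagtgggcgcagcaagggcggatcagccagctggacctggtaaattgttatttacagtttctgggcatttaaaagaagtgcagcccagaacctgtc
*Cftr* (chr6:18170437-18170686, plus strand): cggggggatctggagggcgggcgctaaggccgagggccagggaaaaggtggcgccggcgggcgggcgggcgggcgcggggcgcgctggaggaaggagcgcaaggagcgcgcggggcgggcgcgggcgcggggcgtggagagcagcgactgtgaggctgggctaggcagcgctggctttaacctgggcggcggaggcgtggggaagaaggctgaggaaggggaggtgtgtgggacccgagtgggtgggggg
*Slc13a5* (chr11:72266605-72266854, minus strand): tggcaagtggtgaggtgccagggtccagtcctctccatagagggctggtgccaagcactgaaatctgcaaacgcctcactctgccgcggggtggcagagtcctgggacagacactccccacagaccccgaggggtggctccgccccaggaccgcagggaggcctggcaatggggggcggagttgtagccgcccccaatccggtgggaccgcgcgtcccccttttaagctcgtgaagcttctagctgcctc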

How the data were processed

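The authors trimmed the reads with Trim Galore 0.4.3.1, aligned them to mm10 with STAR 2.6.0b-1, counted them per gene with featureCounts 1.6.3 and named DESeq2 2.11.40.2 for their own testing, per the submitters' processing notes. What they deposited was RPKM for 23358 genes in 8 libraries, beside each gene's length. The annotation, the strand setting and the total behind the RPKM were not given in the sources used here, so values of overlapping genes are uncertain.

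Reads were recovered from RPKM and gene length: in every library all checked values (100%) came to whole reads within 0.05 of a read. Floors of 3 reads per library cover counting error only. log2(RPKM + 1) was tested with limma 3.58.1 under R 4.3.3, using lmFit and eBayes with its trend option. Each comparison used its own 4 libraries, and the interaction used all 8. The filter kept genes that reached RPKM 1 in 2 or more libraries. Benjamini-Hochberg adjustment ran over 14148 genes, with a threshold of 0.05. DESeq2 was not run. Alternatives were a pseudocount of 0.1, median-of-ratios scaling, no filter, a replicate block, voom on recovered reads, all 8 libraries in 1 fit and leaving out each library.

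The 8 genes, the 9 pathway lists and the 10 marker lists were chosen with earlier results of these data known. Of 183 list entries 178 were found, 6 of them under an older symbol (*Beta-s* for *Hbb-bs*, for example). Genes named from a pathway list were those called, the most abundant, and the highest and lowest log2 fold change in CLT. From a marker list they were the most abundant and any without reads. *Klk4*, *Ibsp*, *Mepe* and the fat genes at 0 were named after their values were seen. Gene positions are those of the table, and overlapping exons were taken from GENCODE M21. The fit was tested on simulated reads drawn from the Ctrl CLH means, with the same spread in every library. In cKO CLT 200 genes were changed 2-fold. In CLT the fit called 199 of them and 31 unchanged genes. The real Ctrl CLT pair differed more, with a median absolute difference of log2(RPKM + 1) of 0.40 against 0.09 to 0.11 in the other groups. This recovery therefore does not measure how the fit performs on the real CLT libraries. In CLH and between the Ctrl regions it called 15 and 8 unchanged genes. The unchanged genes called mostly had few reads. A minimum of 50 reads in 2 libraries was therefore added as an alternative, after the data were seen. Python 3.11.15 with pandas 2.3.3 and matplotlib 3.10.9 made the tables and figures.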

Additional observations from a re-analysis of the deposited data

Results flagged for a closer look

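The effect of the cKO label differed between CLT and CLH for 7 of the 8 transport genes by the interaction test in limma (adjusted p under 0.05 over all genes tested). Over all genes tested, 9.58% were called negative and 8.05% positive. In log2 units the difference was -5.09 for *Slc13a5*, -3.995 for *Cftr*, -3.49 for *Slc4a4*, -2.90 for *Wdr72*, -2.65 for *Car2*, -1.99 for *Slc4a2* and -1.19 for *Slc26a6*. *Wdr72* passed the filter only through Ctrl CLT, so its negative difference was built in, which leaves 6 others. With any 1 of the CLH or cKO CLT libraries left out, *Slc4a2*, *Slc26a6* and *Wdr72* were no longer past the threshold. The replicate block and voom left 6 of the 8 called each. Over all genes, 6.61% were called negative with the block and 7.87% with voom. The 8 ameloblast markers were called lower in cKO CLT too (0 by voom), against 1.68% of all genes. Their part in the differences of the transport genes was not tested.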

How the results depend on the processing

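Each count below is of genes called, first of the 8 transport genes and then of all genes tested. For cKO against Ctrl in CLT, with 4 and 248 called, no filter on low values gave 0 and 3, voom on recovered reads 0 and 0, and all 8 libraries in 1 fit 8 and 6183. Leaving out 1 library gave 0 to 8 and 11 to 9838. For CLT against CLH in Ctrl, with 0 and 1 called, a pseudocount of 0.1 gave 2 genes, no filter 0, voom 0, and all 8 libraries in 1 fit 5 and 837. Leaving out 1 library gave 0 to 7 and 0 to 7537. The interaction, with 7 and 2494 called, gave 4 to 8 and 198 to 8932 when 1 library was left out. A library left alone in its group was assumed to vary like the others, and the cause of these shifts was otherwise not tested. In CLH every alternative called 0 genes. A minimum of 50 reads in 2 libraries, added after the data were seen, changed no call of the 8 genes, and called 259 genes in CLT and 2 between the Ctrl regions.

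The replicate numbers were not shown to pair libraries: the differences between replicate 1 and 2 correlated across genes at -0.19 in CLT, 0.07 in CLH, 0.20 between the Ctrl regions and 0.31 between the cKO regions. With the replicate number as a block, 6 transport genes and 1744 genes were called in CLT, 1 and 5 between the Ctrl regions, and 6 and 1448 for the interaction. A crossed replicate block, added after the data were seen, called 0 and 9 in CLT.

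In CLT no direction of the 8 genes reversed under these alternatives. Some differences that were not called did reverse when 1 library was left out. In CLH *Car6* ran from -0.20 to 0.26, *Cftr* from -0.077 to 0.26, *Slc4a4* from -0.16 to 0.15 and *Wdr72* from -0.049 to 0.0070. Between the Ctrl regions *Car2* ran from -0.33 to 0.21, *Slc26a6* from -0.32 to 0.17 and *Med1* from -0.69 to 0.048. Median-of-ratios scaling gave *Car2* 0.11 and *Slc26a6* 0.065 there.

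Depth limits *Wdr72* and *Cftr* in cKO CLT and *Car6* and *Wdr72* in CLH, which rest on at most 34 reads a library. Pooled mice, 2 libraries a group and the unlike Ctrl CLT pair limit the rest.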
